A study of Rattus norvegicus with 20 samples.

Results

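The genes described here belong to the antioxidant response that the transcription factor NRF2 controls, together with Ephx1, the microsomal epoxide hydrolase. They were chosen as a named set of 9 genes: Nqo1, Ephx1, Akr7a3, Gclc, Gclm, Hmox1, Txnrd1, Srxn1 and Gsr. On the array 13 probe sets carried the symbol of one of these genes alone, out of 31042 probe sets, and the genes were 9 of 14217 with a symbol. Liver RNA came from male Harlan Sprague-Dawley rats gavaged once a day for 4 days and killed on day 5. The 5 control rats received corn oil only. The treated groups had 3 rats each and received tricresyl phosphate (TCP), an organophosphate ester, in corn oil at 62.3, 124.5, 248.6, 497.3 or 994.6 mg/kg. One array was hybridised per rat, and the age of the rats and the isomer composition of the TCP are not given in the sources used here.

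NRF2 is held at a low level in resting cells because KEAP1, an adaptor of a cullin ubiquitin ligase, presents it for degradation. Electrophiles and oxidants modify cysteines of KEAP1, NRF2 then accumulates, pairs with small MAF proteins and binds antioxidant response elements near genes for detoxification, glutathione synthesis and the repair of oxidised thiols. In the liver several of these genes also answer to other receptors. Nqo1 is a known target of the aryl hydrocarbon receptor AhR as well, and Ephx1 of the receptors CAR and PXR, which sense drugs and other foreign chemicals.

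Promoter sequence was available from RefSeq (build GRCr8) for 7 of the 9 genes, as 9 windows of 270 bases around annotated transcript starts, 250 bases before and 20 after. They were searched on both strands for the antioxidant response element core in its forms TGACNNNGC and TGAGNNNGC, and for the related AP-1 motif TGANTCA, which can overlap either of them. The windows of 4 genes are shown because these genes span the behaviour seen below: Nqo1 and Ephx1, which rose at the top dose, Srxn1, which rose with dose and has the most matches, and Gclm, which did not pass any test. Each reads 5′ to 3′ in the direction of transcription, with bases of a motif match in capitals. The Ephx1 window belongs to a transcript that starts 12735 bases inside the gene.
Nqo1, chr19:52220248-52220517, minus strand: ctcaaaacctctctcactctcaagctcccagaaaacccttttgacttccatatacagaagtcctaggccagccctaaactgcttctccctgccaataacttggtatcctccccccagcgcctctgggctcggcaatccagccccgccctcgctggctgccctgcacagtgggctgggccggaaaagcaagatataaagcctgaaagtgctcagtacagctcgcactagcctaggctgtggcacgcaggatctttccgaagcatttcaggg
Ephx1, chr13:95263098-95263367, minus strand: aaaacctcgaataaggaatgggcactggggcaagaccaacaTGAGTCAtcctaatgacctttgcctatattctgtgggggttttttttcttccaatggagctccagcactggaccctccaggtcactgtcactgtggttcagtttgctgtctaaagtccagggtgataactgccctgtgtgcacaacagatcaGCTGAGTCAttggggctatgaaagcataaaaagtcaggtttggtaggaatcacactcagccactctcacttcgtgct
Srxn1, chr3:161064562-161064831, plus strand: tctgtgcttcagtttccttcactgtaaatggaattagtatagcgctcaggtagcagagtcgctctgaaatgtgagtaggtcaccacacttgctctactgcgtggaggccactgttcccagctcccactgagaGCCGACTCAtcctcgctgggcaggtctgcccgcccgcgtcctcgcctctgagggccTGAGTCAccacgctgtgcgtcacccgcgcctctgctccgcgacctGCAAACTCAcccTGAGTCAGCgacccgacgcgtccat
Gclm, chr2:213031885-213032154, plus strand: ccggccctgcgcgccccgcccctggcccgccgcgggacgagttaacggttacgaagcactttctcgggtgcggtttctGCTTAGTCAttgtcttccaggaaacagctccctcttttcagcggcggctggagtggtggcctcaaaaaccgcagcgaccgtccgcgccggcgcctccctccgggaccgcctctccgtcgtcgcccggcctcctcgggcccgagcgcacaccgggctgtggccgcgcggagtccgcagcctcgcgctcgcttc
The Ephx1 window held GCTGAGTCA, which is TGACNNNGC read on the opposite strand, from -57 to -49 relative to the start, and TGAGTCA from -209 to -203 and again within the first match. In Srxn1 the match TGAGTCAGC spanned the start itself, GCCGACTCA lay from -118 to -110, GCAAACTCA from -17 to -9, and a separate TGAGTCA from -62 to -56. Gclm had GCTTAGTCA from -172 to -164. A second window of Txnrd1, around a transcript start 46649 bases from the gene start, held GCTTTGTCA from -78 to -70. The windows of Nqo1, Akr7a3 and Gclc, the first of Ephx1 and the first of Txnrd1 held none of these letters. The first Txnrd1 window lies around a start 37702 bases from the gene start, and that of Gclc around one 225 bases from it. A match, or the lack of one, describes the sequence of these windows only, and bases further from the start were not searched. Among 33469 rat windows of the same length, 10.9% held TGACNNNGC, 15.4% held TGAGNNNGC and 6.81% held TGANTCA.

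The arrays were alike in scale, with medians between 6.31 and 6.41 on the log2 scale. Correlations ran from 0.986 to 0.996 within groups and from 0.980 to 0.996 between them. One array stood apart, replicate 1 of 994.6 mg/kg, with a score of 37.1 on the first principal component (20.1% of the variance) where the other 19 had scores from -14.2 to 9.14. Hepatocyte genes marked the tissue: Alb, Ttr, Apoa1, Cps1, Serpina1 and Fgb averaged between the 99.6th and the 100th percentile of genes, Tat, the other measured gene of that list, was at the 85.6th, and none of these 7 was called at 994.6 mg/kg. Red blood cell markers moved with dose. Their list averaged 8.23 (range 7.58 to 8.58) at 994.6 mg/kg and 9.30 (9.25 to 9.38) in control, and 4 of 5 were called lower. A measure of RNA quality differed as well, that of GAPDH, a control transcript whose 3′ end is read more strongly than its 5′ end where RNA or cDNA is shortened. The log2 difference between these ends lay between 0.612 and 1.11 in 14 treated arrays, at 2.58 in replicate 2 of 124.5 mg/kg, and between 1.13 and 1.56 in the controls, so that it and the treatment cannot be told apart. The part of these shifts in the results below was not tested, except where a fit with the GAPDH difference as a covariate is given. In pieces of whole liver, fewer cells of a type and less RNA per cell cannot be told apart.

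At 994.6 mg/kg against control, 2 of the 9 genes rose, Nqo1 and Ephx1, and 1 fell, Gclc, beside 4.47% of all 14217 genes called (2.5% higher and 1.96% lower). A gene was called at an adjusted p below 0.05, from limma with Benjamini-Hochberg adjustment over all genes of a comparison. At 497.3 mg/kg, where 0.732% of genes were called and 0.513% were higher, Ephx1 and Srxn1 rose. At 248.6 mg/kg, where 0.0563% were called (8 genes in all) and 0.0492% were higher, Ephx1 and Akr7a3 rose. None of the 9 was called at 124.5 mg/kg, with 0.00703% of genes called, or at 62.3 mg/kg, with 0% called, although by limma 3 of the 9 at 124.5 mg/kg and 1 at 62.3 mg/kg had an unadjusted p below 0.05, as did 717 and 349 of all genes. The median log2 change of the 9 was 0.49 at 994.6 mg/kg, beside -0.01 over all genes, and at 62.3 mg/kg it was 0.16, beside 0.00. The dose comparisons share the same 5 controls.

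**Figure D1:**
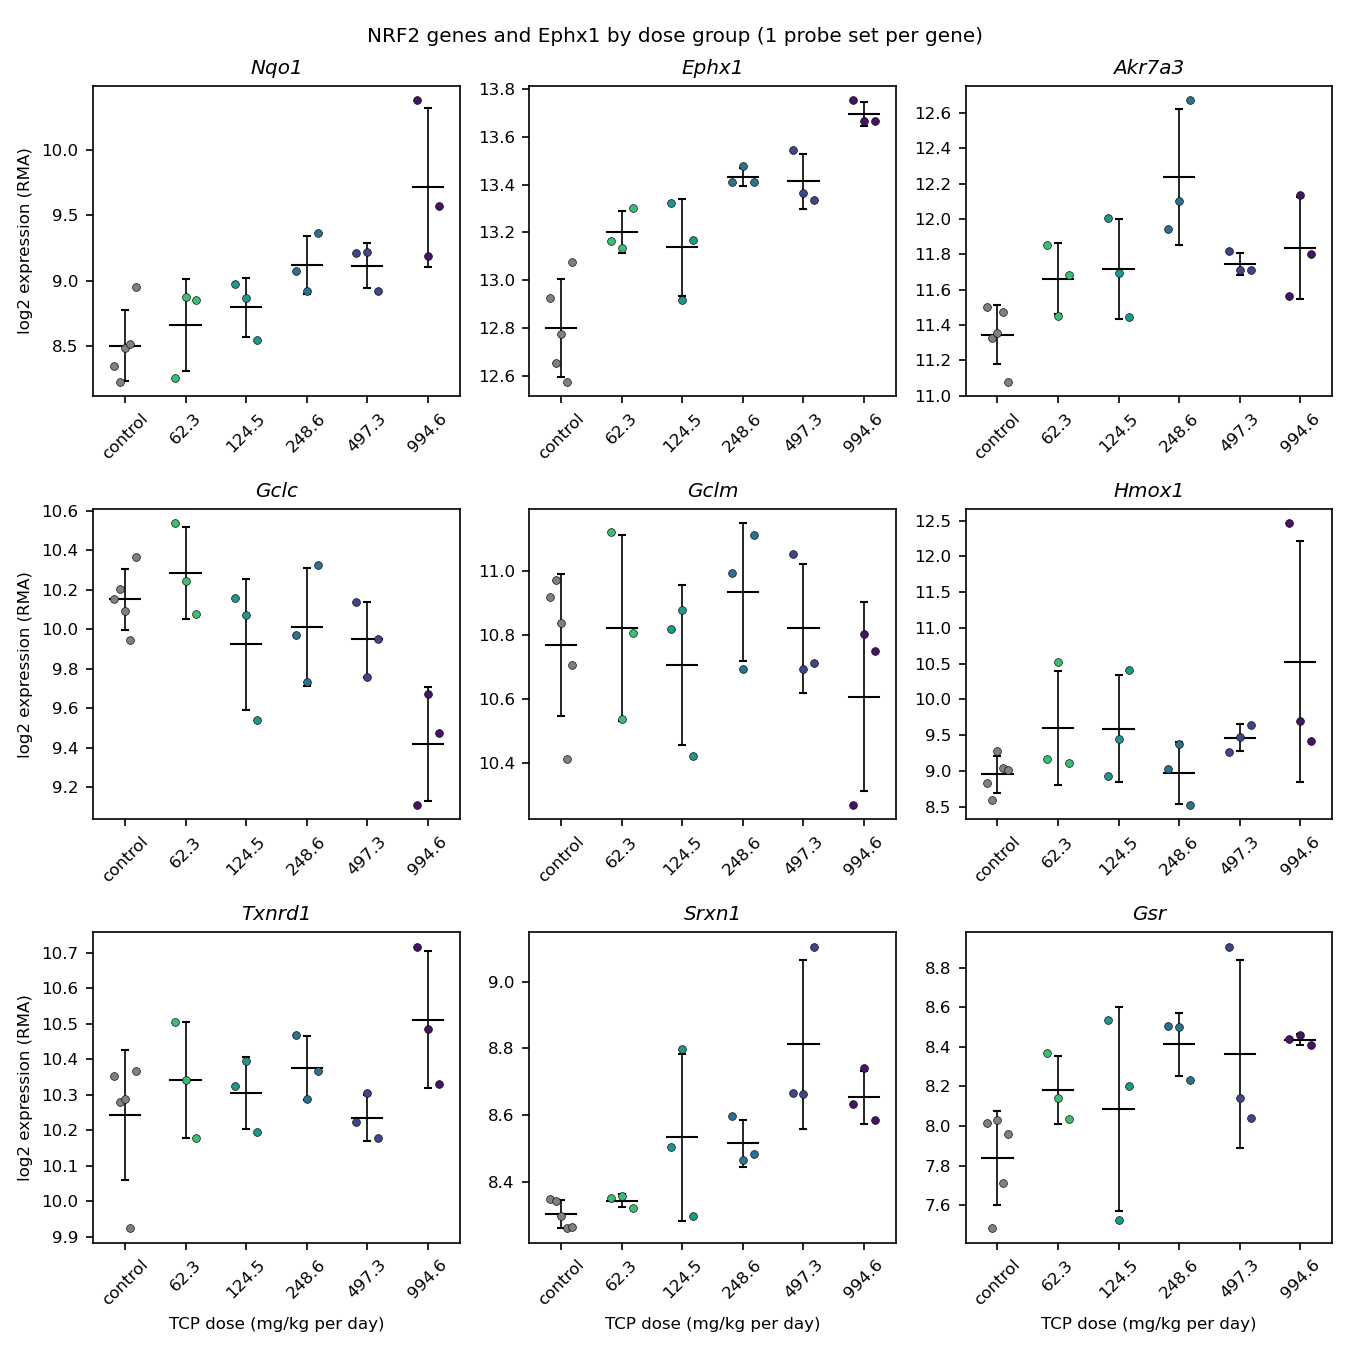
Log2 expression (RMA) of the 9 genes, 1 panel per gene with the probe set of highest mean, against TCP dose in mg/kg per day. Points are single rats (5 controls, 3 per dose), bars the group mean and whiskers 1 SD. Ephx1 sits above all controls at every dose except 124.5 mg/kg, Nqo1 is highest at 994.6 mg/kg, Gclc is lowest there, and Hmox1 has 1 liver at 12.46.

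Nqo1, Ephx1 and Akr7a3 encode enzymes that handle quinones, epoxides and aldehydes. Nqo1 reduces quinones by transfer of a pair of electrons and so keeps them from redox cycling. Its log2 values at 994.6 mg/kg were 10.38, 9.19 and 9.57, against 8.34, 8.22, 8.48, 8.51 and 8.95 in control. All 3 treated livers lay above all 5 controls, and replicate 1 stood well above the other 2. The difference was 1.21 ± 0.22 (limma SE), a 2.32-fold rise with a limma adjusted p of 0.00347. Nqo1 rose along the dose series as well, with group means of 8.50, 8.66, 8.80, 9.12, 9.11 and 9.72 in control and at 62.3, 124.5, 248.6, 497.3 and 994.6 mg/kg. Single livers already exceeded every control at 124.5 mg/kg (1 of 3), 248.6 mg/kg (2 of 3) and 497.3 mg/kg (2 of 3), but neighbouring groups overlapped throughout. At 497.3 mg/kg the difference was 0.61 ± 0.22, which did not pass the test (limma adjusted p = 0.224).

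Ephx1 hydrolyses epoxides that cytochrome P450 enzymes make, giving diols. It was among the most strongly expressed genes, with a mean in the 99.2nd percentile of probe sets. At 994.6 mg/kg it had 13.75, 13.66 and 13.66, against 12.92, 12.65, 12.78, 12.57 and 13.08 in control. These groups did not overlap, and the top-dose livers varied little (SD 0.05, n = 3). The rise was 0.89 ± 0.11, or 1.86-fold (limma adjusted p = 1e-04). It also rose by 0.61 ± 0.11 at 497.3 mg/kg (limma adjusted p = 0.00828), where the livers had 13.55, 13.36 and 13.33. At 248.6 mg/kg, with 13.41, 13.48 and 13.41, the rise was 0.63 ± 0.11 (limma adjusted p = 0.0248). Of 15 treated livers 14 exceeded every control, and the exception was replicate 2 of 124.5 mg/kg at 12.92, the array with the deviating GAPDH difference. The 3 livers at 62.3 mg/kg, with 13.17, 13.14 and 13.30, were above all controls, yet the difference of 0.40 did not pass the test over all genes. Ordered by mean, the groups ran control, 124.5, 62.3, 497.3, 248.6 and 994.6 mg/kg. Neighbours in this order did not overlap between 62.3 and 497.3 mg/kg or between 248.6 and 994.6 mg/kg. The call at 248.6 mg/kg was lost when any of its 3 livers, or control 2, 3 or 4, was left out, with adjusted p between 0.0549 and 0.171, and that at 497.3 mg/kg without its replicate 1 (adjusted p = 0.0555). At 248.6 mg/kg the call also ended with the GAPDH difference or that of beta-actin as a covariate, and with only the compared groups.

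Akr7a3 is an aldo-keto reductase known in rats for reducing the dialdehyde of aflatoxin. It peaked in the middle of the dose range. The livers had 11.95, 12.10 and 12.67 at 248.6 mg/kg, against 11.50, 11.33, 11.35, 11.47 and 11.08 in control, without overlap. This was a rise of 0.89 ± 0.16, or 1.86-fold (limma adjusted p = 0.0464). At 497.3 mg/kg the livers had 11.82, 11.71 and 11.71, and at 994.6 mg/kg 11.56, 12.14 and 11.80, all again above the controls. Those differences, 0.40 ± 0.16 and 0.49 ± 0.16, did not pass the test (limma adjusted p = 0.304 and 0.0915). The ranges at 248.6 and 994.6 mg/kg overlapped, and the difference between these doses was not tested. The call at 248.6 mg/kg is marginal: leaving out any 1 control, or replicate 2 or 3 of that dose, ended it, with adjusted p between 0.0707 and 0.504. It also ended with quantile normalization, the GAPDH or beta-actin difference as a covariate, or the replicate number as a block. The same held with genes averaged over their probe sets, with only the compared groups, and over all probe sets (limma adjusted p = 0.0635).

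Gclc, Gclm and Gsr serve the synthesis and recycling of glutathione. Glutamate-cysteine ligase makes the first and rate-limiting step of glutathione synthesis, and consists of a catalytic subunit, encoded by Gclc, and a modifier subunit, encoded by Gclm. Gclc was measured by 2 probe sets. The brighter, 1372523_at, had 9.11, 9.67 and 9.47 at 994.6 mg/kg, against 10.16, 10.21, 10.09, 9.94 and 10.37 in control. All 3 treated livers lay below every control. Gclc on this probe set fell by 0.73 ± 0.16 at 994.6 mg/kg, to 0.601 of the control level (limma adjusted p = 0.0142). At the lower doses the group means stayed between 9.92 and 10.29, around the control mean of 10.15, and no dose below 994.6 mg/kg was called.

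The second Gclc probe set, 1370688_at, gave a smaller difference. It had 7.80, 7.98 and 7.71 at 994.6 mg/kg, against 8.27, 8.10, 8.32, 7.90 and 8.41 in control. Here replicate 2 of the top dose lay above control 4, so the groups overlapped. The difference was -0.37 ± 0.17 with a 95% interval from -0.73 to -0.0018, and its limma adjusted p over all 31042 probe sets was 0.333, a set of tests in which 2.6% of probe sets were called. At the other doses this probe set differed from control by between -0.08 and 0.22, and none was called. Across the 20 arrays the pair of probe sets correlated at r = 0.848. This describes arrays that share their dose groups.

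Within an array, 1372523_at minus 1370688_at was 1.31, 1.69 and 1.76 at 994.6 mg/kg, against 1.89, 2.10, 1.77, 2.04 and 1.96 in control. The top-dose livers thus lay below all controls in this difference too. It averaged 1.58 ± 0.24 at 994.6 mg/kg and 1.95 ± 0.13 in control (SD, n = 3 and 5). A two-sided exact permutation test of that gap of -0.37 gave p = 0.0179, the smallest that 56 splits allow, in 1 pair of probe sets compared. Over all 15 treated livers against control the gap was -0.18 (two-sided exact permutation p = 0.0533), and at 497.3 mg/kg -0.14 (exact p = 0.286). Without replicate 1 of 994.6 mg/kg the gap was -0.23 (exact p = 0.0952), and without control 1, 2, 4 or 5 it was between -0.38 and -0.33 (exact p = 0.0571). The Gclc call itself also ended without that liver (-0.58, limma adjusted p = 0.131) and with the mean of the probe sets in place of the brighter one (-0.55, adjusted p = 0.0562).

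**Figure D2:**
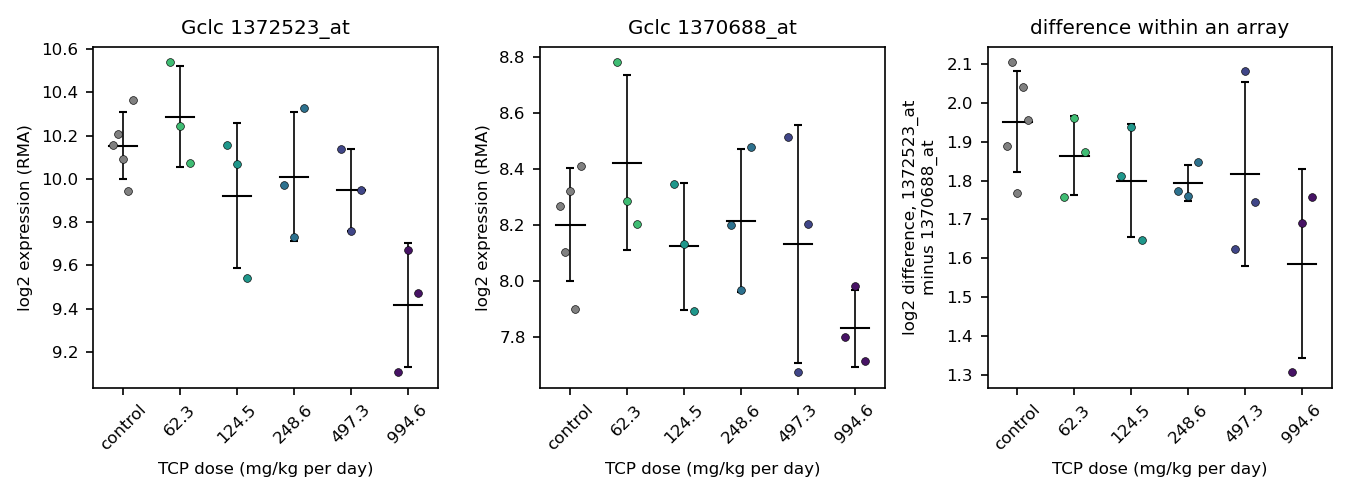
The Gclc probe sets by TCP dose in mg/kg per day: log2 expression of 1372523_at (left), of 1370688_at (middle), and their difference within each array (right). Points are single rats, bars group means and whiskers 1 SD. At 994.6 mg/kg the left panel shows all 3 rats below the 5 controls, while in the middle panel the ranges overlap.

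Gclm, the modifier subunit, showed no call at any dose. It had 10.27, 10.80 and 10.75 at 994.6 mg/kg, against 10.92, 10.97, 10.84, 10.41 and 10.71 in control, and the low value was that of replicate 1. The difference was -0.16 ± 0.16, with a 95% interval from -0.50 to 0.18 (limma adjusted p = 0.669). Without replicate 1 it was 0.01. Whether Gclc and Gclm differed in their response was not tested, and over the 20 arrays they correlated at r = 0.668, or 0.526 without replicate 1 of 994.6 mg/kg.

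Gsr, glutathione reductase, returns oxidised glutathione to its reduced form. It had 8.44, 8.46 and 8.41 at 994.6 mg/kg, against 8.02, 7.48, 8.03, 7.71 and 7.96 in control. All 3 treated livers were above all controls, and 14 of 15 treated livers over all doses were, with replicate 2 of 124.5 mg/kg at 7.52 as the exception. Some were barely so, with 8.033 in replicate 3 of 62.3 mg/kg and 8.0415 in replicate 3 of 497.3 mg/kg, against 8.0308 in control 3. The difference at 994.6 mg/kg was 0.60 ± 0.20 and did not pass the test (limma adjusted p = 0.0962). With the GAPDH difference as a covariate it was 0.27 (adjusted p = 0.411), and with that of beta-actin also 0.27 (adjusted p = 0.404). Its slope over the dose series passed, but not with either covariate, as given below.

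Thiol repair was represented by Srxn1 and Txnrd1. Srxn1 encodes sulfiredoxin, which restores peroxiredoxins that have been overoxidised. At 497.3 mg/kg its brightest probe set, 1372510_at, had 8.67, 8.66 and 9.10, against 8.35, 8.34, 8.30, 8.26 and 8.27 in control. The controls lay within a narrow band (SD 0.04, n = 5), and all treated livers were above it. Srxn1 rose by 0.51 ± 0.10, or 1.42-fold (limma adjusted p = 0.0258). At 994.6 mg/kg the livers had 8.63, 8.74 and 8.59, and at 248.6 mg/kg 8.60, 8.46 and 8.48, again all above the controls. The difference of 0.35 ± 0.10 at 994.6 mg/kg did not pass the test (limma adjusted p = 0.0611). The call at 497.3 mg/kg ended when replicate 3, the 9.10 liver, or control 2, 3, 4 or 5 was left out (adjusted p between 0.0505 and 0.134), and with the mean of the Srxn1 probe sets the change was 0.25 (adjusted p = 0.22). The mean of 5 bile duct markers was 7.13 (range 6.67 to 7.45) at 497.3 mg/kg and 6.55 (6.39 to 6.69) in control, and its part in the result was not tested. The other Srxn1 probe sets were dim, with values from 5.27 to 6.22, and neither was called. They correlated with the bright one at r = 0.307 and -0.115 over the 20 arrays. The dimmer pair differed from control by 0.27 ± 0.18 (1384331_at) and -0.08 ± 0.08 (1381067_at) at 994.6 mg/kg.

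Txnrd1 encodes cytosolic thioredoxin reductase, which uses NADPH to reduce thioredoxin. Its brighter probe set, 1398791_at, had 10.72, 10.49 and 10.33 at 994.6 mg/kg, against 10.35, 10.28, 10.29, 9.92 and 10.37 in control. These groups overlapped, with the lowest value in control 4. The difference was 0.27 ± 0.11 (limma adjusted p = 0.171, 95% interval 0.04 to 0.49). For 1386958_at it was 0.45 ± 0.19 (adjusted p over probe sets 0.25), with replicate 1 highest at 9.47, and the pair correlated at r = 0.701 over the 20 arrays. No dose was called on either.

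Hmox1, heme oxygenase, breaks heme down to biliverdin, iron and carbon monoxide, and is expressed in macrophages as well as in stressed hepatocytes. It was the most uneven of the 9 within groups. At 994.6 mg/kg it had 12.46, 9.70 and 9.42, against 8.83, 8.59, 9.28, 9.04 and 9.01 in control. All 3 treated livers were above the controls, but by very different amounts, and replicate 1 was again the extreme. The difference of 1.58 ± 0.50 was the largest among the 9 genes and did not pass the test (limma adjusted p = 0.0783). Without replicate 1 it was 0.61 (adjusted p = 0.543), and without replicate 3 it was 2.13 (adjusted p = 0.0295). Single high livers also occurred at the lowest doses, 10.52 in replicate 2 of 62.3 mg/kg and 10.40 in replicate 3 of 124.5 mg/kg. The mean of 5 Kupffer cell and macrophage genes was 9.42 in replicate 1 of 994.6 mg/kg, 9.76 in replicate 2 of 62.3 mg/kg and 9.14 in replicate 3 of 124.5 mg/kg, against 8.96 to 9.50 in control, and none of these genes was called at 994.6 mg/kg.

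**Figure D3:**
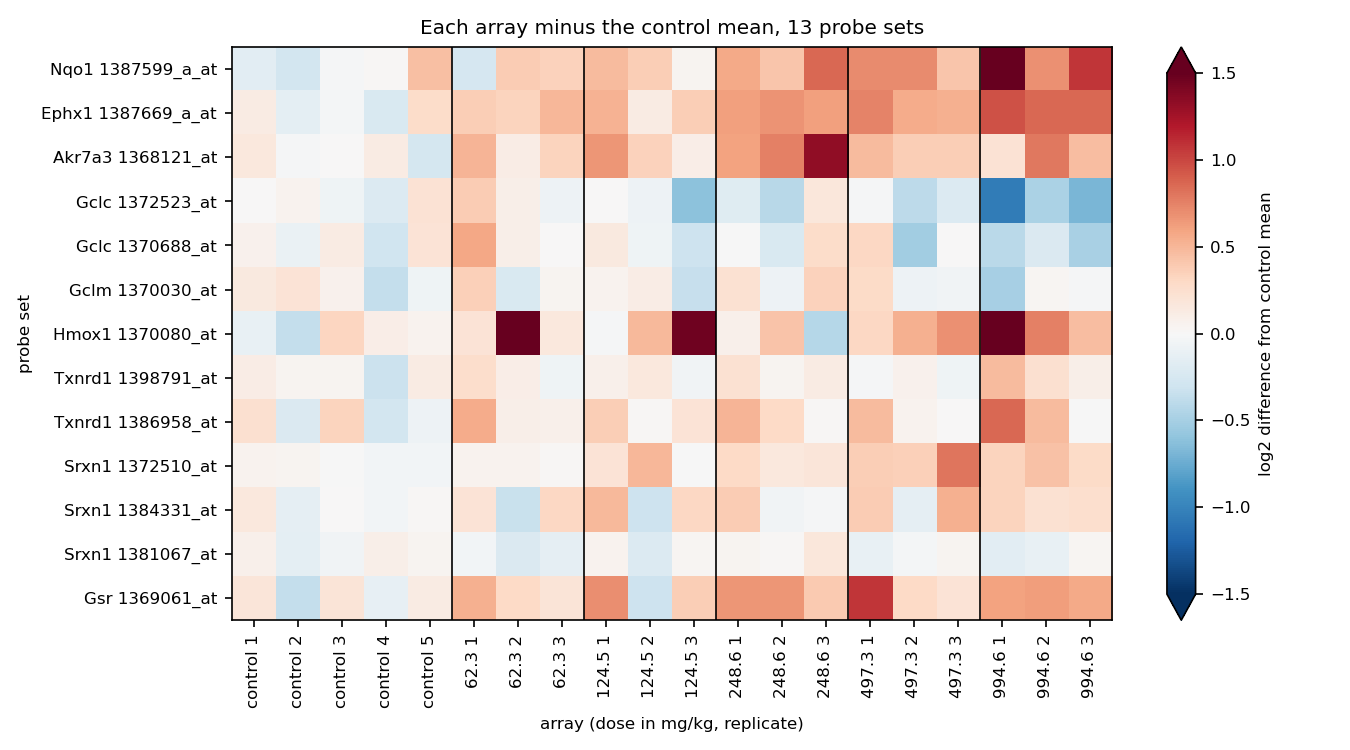
Log2 difference of each array from the control mean for the 13 probe sets (rows), with arrays in columns ordered by dose and replicate, red for higher and blue for lower. Colours stop at 1.5 on either side, so the first array of 994.6 mg/kg is off the scale for Hmox1 (12.46) and Nqo1 (10.38), as is 1 array of 62.3 mg/kg for Hmox1 (10.52). Ephx1 and Gsr are red across nearly all treated arrays, and Hmox1 is dark in single arrays of different doses.

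Over the whole dose series, taken as steps from 0 for control to 5 for 994.6 mg/kg, 4 of the 9 genes rose and 1 fell, beside 6.47% of all genes called (3.9% higher and 2.57% lower). The log2 slope per step was 0.22 ± 0.04 for Nqo1 (limma adjusted p = 0.00115) and 0.16 ± 0.02 for Ephx1 (adjusted p = 3.85e-05). Srxn1 had a slope of 0.09 ± 0.02 (adjusted p = 0.00523) and Gsr one of 0.12 ± 0.03 (adjusted p = 0.0344). The dimmer Srxn1 probe sets had slopes of 0.055 (1384331_at) and -0.002 (1381067_at), neither called (limma adjusted p over probe sets 0.332 and 0.972). With the mean of its probe sets Srxn1 was still called. Gclc fell by 0.12 ± 0.03 per step on its brighter probe set (adjusted p = 0.0189). On 1370688_at the slope was -0.06 ± 0.03 and was not called (limma adjusted p over probe sets 0.285). With the mean of its probe sets Gclc was not called either. Akr7a3, highest in the middle of the range, had 0.10 ± 0.04 and did not pass (adjusted p = 0.0743), nor did Hmox1 with 0.20 ± 0.09 (adjusted p = 0.202). Slopes of Txnrd1 and Gclm were 0.03 and -0.01. Without the 994.6 mg/kg group the calls of Nqo1, Ephx1 and Srxn1 held, while those of Gclc (-0.06, adjusted p = 0.417) and Gsr (0.14, adjusted p = 0.151) ended. The Gclc slope also lost its call without replicate 1 of 994.6 mg/kg (adjusted p = 0.0689) and that of Gsr without any of 7 single livers (replicates 1 and 2 of 994.6 mg/kg, replicate 1 of 497.3 mg/kg and controls 1, 2, 4 and 5, adjusted p between 0.0525 and 0.0818). With the GAPDH difference as a covariate the Gsr slope was 0.06 (adjusted p = 0.244), with that of beta-actin 0.06 (adjusted p = 0.218), and the Gclc slope of -0.12 also missed the threshold with either (adjusted p = 0.0546 and 0.0518). Gsr was not called either with the replicate number as a block, without controls 4 and 5, or on dose in mg/kg in place of steps.

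Among the 15 treated rats alone, 14 of which had a GAPDH difference between 0.612 and 1.11, Ephx1 was the single call of the 9, beside 0.218% of all genes (31), or 0.155% higher. It rose by 0.13 ± 0.03 per step (limma adjusted p = 0.0471), and 12 of the 15 fits that leave out 1 treated rat lost this call, with slopes between 0.12 and 0.13. Among treated rats the GAPDH difference was 0.907, 1.11 and 0.867 at 62.3 mg/kg and 0.612, 0.836 and 0.71 at 994.6 mg/kg. With it as a covariate in this fit the Ephx1 call ended, and with that of beta-actin it held. Adjusted over all probe sets the call ended too (limma adjusted p = 0.0629). Nqo1 had the steeper slope, 0.24 ± 0.05, and did not pass (adjusted p = 0.0691). With the GAPDH difference as a covariate over all 20 arrays, Nqo1 and Ephx1 were still called at 994.6 mg/kg, Srxn1 became so (0.48, adjusted p = 0.0177) and Gclc was not (-0.66, adjusted p = 0.0632). With the deviating array of 124.5 mg/kg left out as well, a fit chosen after seeing the data, the covariate separated treated from control rats completely. None of the 9 was called then and 3 genes were called in all, with Nqo1 at 0.62 (adjusted p = 0.888) and Ephx1 at 0.48 (adjusted p = 0.718).

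Counted by rank alone, 6 genes had all 3 livers of 994.6 mg/kg above all controls, namely Nqo1, Ephx1, Akr7a3, Hmox1, Srxn1 and Gsr, where 6.91% of all genes did so. Gclc alone had all 3 below, where 7.12% of all genes did. Ephx1, Akr7a3, Srxn1 and Gsr lay above all controls at 497.3 mg/kg and again at 248.6 mg/kg, where 5.71% and 4.25% of genes did. At 124.5 mg/kg no gene of the set did so (2.24% of all genes), and at 62.3 mg/kg Ephx1 and Gsr did (1.44%). For Gsr the lowest liver at 62.3 mg/kg had 8.033 and the highest control 8.0308, nearly a tie.

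The pathway lists here and below were chosen with earlier results of these data known, so their counts are a description. Among the regulators of NRF2, 2 of 10 measured rose at 994.6 mg/kg and none fell. Of all genes 2.5% were called higher and 1.96% lower. The median log2 change of the regulators was 0.11, beside -0.01 over all genes. Sqstm1, the autophagy adaptor p62 that binds KEAP1, rose by 0.46 ± 0.11 (limma adjusted p = 0.0182). Nfe2l1, which encodes the NRF2 relative known for controlling proteasome genes, rose by 0.45 ± 0.10 (adjusted p = 0.012). Averaged over all probe sets of the gene the changes were 0.25 for Sqstm1 (adjusted p = 0.0928) and 0.26 for Nfe2l1 (adjusted p = 0.102). The call of Sqstm1 also ended with either covariate or without replicate 1 of 994.6 mg/kg (adjusted p between 0.0827 and 0.139). That of Nfe2l1 ended with the GAPDH covariate, quantile normalization, the replicate block or without replicate 2 (between 0.0528 and 0.0608). The fit with the replicate block also left out controls 4 and 5. Nfe2l2, the gene of NRF2 itself, and Keap1 differed from control by 0.12 ± 0.27 and 0.05 ± 0.10 (adjusted p = 0.863 and 0.869). NRF2 is regulated largely as a protein, which these arrays do not measure.

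Of 25 other known NRF2 targets 5 rose at 994.6 mg/kg and none fell, beside 2.5% of all genes called higher, with a median of 0.18 beside -0.01 over all genes. Abcc3, an export pump for conjugates and bile acids on the side of the hepatocyte facing blood, averaged 9.56 at 994.6 mg/kg and 6.70 in control (SD 0.30 and 0.24, n = 3 and 5), a rise of 2.86 ± 0.24 (limma adjusted p = 2.15e-06). Gsta3, a glutathione transferase, lay between 9.34 and 9.95 at 994.6 mg/kg and between 7.55 and 8.59 in control, and rose by 1.72 ± 0.20 (adjusted p = 8.28e-05). Aldh1a1, a retinaldehyde dehydrogenase, rose by 0.73 ± 0.13, Gsta4, which conjugates the lipid aldehyde 4-hydroxynonenal, by 0.53 ± 0.11, and the aldehyde oxidase Aox1 by 0.46 ± 0.08 (adjusted p between 0.00312 and 0.00786). Without replicate 1 of 994.6 mg/kg the call of Gsta4 ended (0.44, adjusted p = 0.0795). Abcc3 and Gsta3 were also called at 497.3 and 248.6 mg/kg and among treated rats alone. Several of these genes are known targets of CAR or PXR too. The cystine importer gene Slc7a11 (0.71 ± 0.37), Gpx2 (0.99 ± 0.67), Me1 (0.74 ± 0.26) and Osgin1 (-0.42 ± 0.62) did not pass the test.

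On the list for the glutathione and thioredoxin cycle 1 of 17 genes rose and 1 fell at 994.6 mg/kg. This was close to the 2.5% called higher and 1.96% called lower over all genes, and the list median was -0.03. The list leaves out Gclc, Gclm, Gsr, Txnrd1 and Srxn1, described above, of which Gclc fell at this dose. Its count therefore does not cover the whole cycle. The list gene that rose encodes a superoxide dismutase, which acts on neither glutathione nor thioredoxin. Sod2, the mitochondrial superoxide dismutase, rose by 0.48 ± 0.11 (limma adjusted p = 0.0204), but by 0.28 without replicate 1 of that dose, which did not pass (adjusted p = 0.156), and the call also ended with either covariate, the replicate block or only the compared groups (adjusted p between 0.056 and 0.0903). Ggct, which cleaves gamma-glutamyl dipeptides, fell by 0.52 ± 0.13 (adjusted p = 0.0267). That call ended without any 1 of the 3 top-dose livers, without control 3, 4 or 5, and with median centring, either covariate, the replicate block or the mean of probe sets (adjusted p between 0.052 and 0.138). Gss, the enzyme that completes glutathione after glutamate-cysteine ligase, differed by -0.02 ± 0.10 (adjusted p = 0.947).

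Lists for the receptors that share targets with NRF2 were counted as well. As these were also chosen with earlier results known, their counts are a description. Neither the difference between lists nor the part of a receptor in the changes was tested. For CAR and PXR 7 of 10 listed genes were measured. Their median log2 change at 994.6 mg/kg was 0.95, beside -0.01 over all genes. Beside 2.5% of all genes called higher, none of the 7 fell and 4 rose. These were the carboxylesterase gene Ces2c (2.92 ± 0.17), the glucuronosyltransferase gene Ugt2b1 (1.25 ± 0.14), Alas1, which starts heme synthesis (0.95 ± 0.18), and the P450 gene Cyp3a23-3a1 (0.90 ± 0.18), with limma adjusted p between 7.33e-09 and 0.00716. The call of Cyp3a23-3a1 ended without replicate 1 of that dose (adjusted p = 0.0579) or with only the compared groups (0.0506), and that of Alas1 with the replicate block (0.0567). For AhR 0 of 6 genes were called by limma at any dose, close to the share of all genes, which was 4.47% at 994.6 mg/kg and smaller below. Nqo1 was not among these 6. In control Ahrr, Aldh3a1, Cyp1a1 and Cyp1b1 were dim, with means of 5.30, 5.78, 6.04 and 6.37. These lay below or within the range of array medians, 6.31 to 6.41. Tiparp averaged 8.66 and Cyp1a2 13.4. At 994.6 mg/kg 0 of the 6 had an unadjusted limma p under 0.05, beside 2641 of all 14217 genes. At that dose Cyp1a1 differed by 0.91 ± 0.54 (adjusted p = 0.4) and Cyp1a2 by 0.19 ± 0.12 (adjusted p = 0.405). At 248.6 mg/kg 2 of the 6 had an unadjusted limma p under 0.05, beside 945 of all genes. At 497.3 mg/kg 1 of the 6 had such a p, beside 1729 of all genes. Cyp1a1 at 248.6 mg/kg differed by 1.72 ± 0.54, or 3.29-fold (adjusted p = 0.583), with livers between 6.15 and 10.17 against 5.82 to 6.17 in control. The top-dose value of Cyp1a1 turned to -0.82 and that of Cyp1a2 to -0.03 with the GAPDH covariate when the deviating array was left out.

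**Figure D4:**
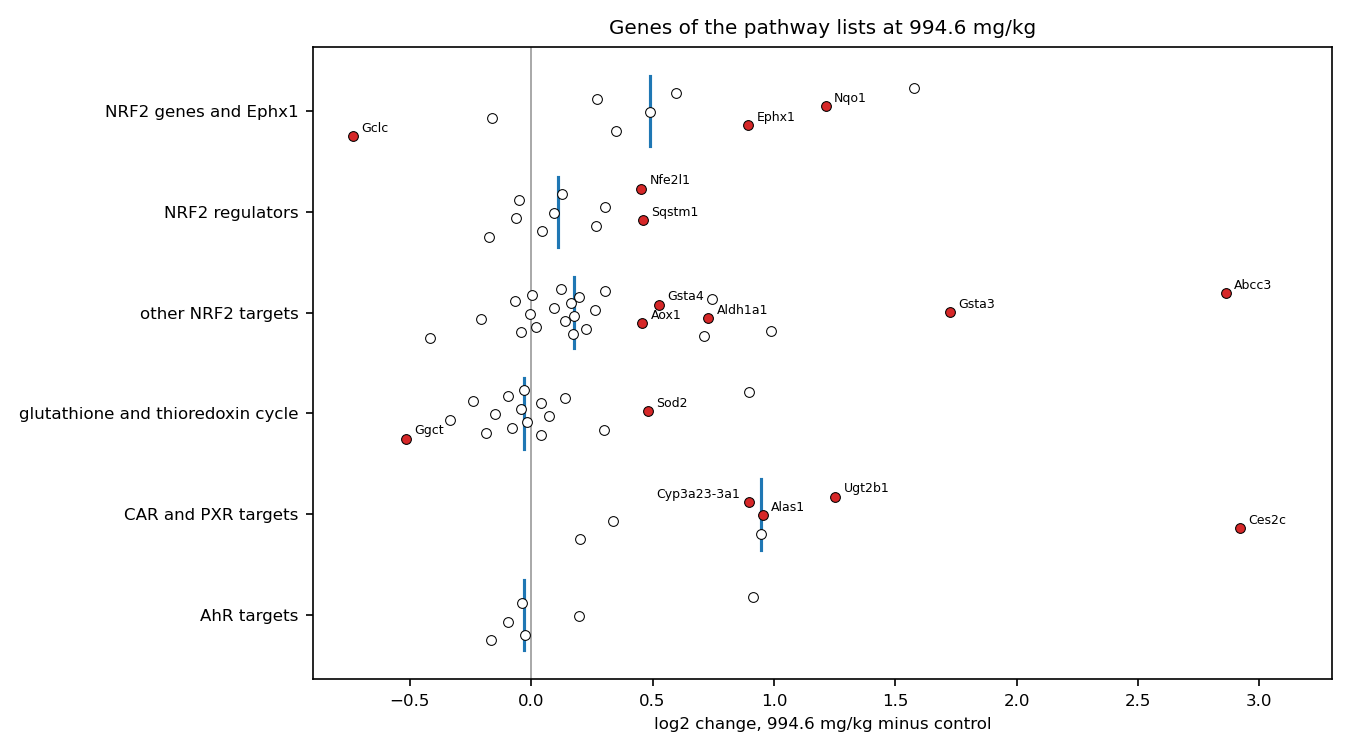
Log2 change at 994.6 mg/kg against control for each gene of 6 lists (rows), with filled red points for genes called by limma over all genes and open points for the rest. Blue lines are list medians, which run from -0.03 to 0.95. Vertical position within a row only spreads the points.

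The genes nearest to each gene called at 994.6 mg/kg or in the dose trend over the 20 arrays, by Pearson's r on log2 values, are given as a description, since all arrays share the dose groups. Nqo1 ran closest to Psme2 (r = 0.956) and Psme1 (0.925), which encode the proteasome activator PA28, and to Ces2c (0.877). Ephx1 ran with Pros1, the gene of protein S (0.932), with Gsta3 (0.899) and with the proteasome gene Psmd8 (0.898). For Gclc they were Tmcc3 (0.866), the endocytic receptor gene Lrp2 (0.864) and Alad of heme synthesis (0.861). Srxn1 was nearest to Crb3 (0.889), the keratin gene Krt18 (0.875) and Nfkb2 (0.874), and Gsr to Sh3bgrl1 (0.857), the pseudogene Actr2-ps1 (0.856) and St13 (0.843). Within the set itself Ephx1 and Gsr (r = 0.799) and Nqo1 and Ephx1 (0.794) ran most alike. These values were 0.803 and 0.797 without replicate 1 of 994.6 mg/kg. Nqo1 and Hmox1 correlated at 0.591 over all 20 arrays and at 0.0905 without that liver.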

How the data were processed

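Liver RNA of 20 rats was measured on 1-colour Affymetrix arrays. The authors deposited log2 values that, per the submitters' processing notes, come from RMA. Its version and the arrays normalised together are not given in the sources used here. RMA summarises a probe set and equalises array distributions, so changes are relative to the bulk of genes. Of 31099 probe sets 57 were controls, 20826 had 1 symbol, 436 several and 9780 none. No probe set with several symbols named a gene of the set. Where several probe sets shared a symbol, the brightest on average stood for the gene (14217 genes). No filter was applied. The number of arrays limits the precision.

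Group means were modelled over all 20 arrays together (limma 3.58.1, lmFit and eBayes, R 4.3.3, 14 residual and 4.77 prior degrees of freedom), with doses against control and slopes on dose step. Adjusted p-values are Benjamini-Hochberg over all genes, or over all probe sets for those that do not stand for their gene. The fit was tested on simulated data with known changes, linear in dose step, and independent normal noise. Those data held no deviating array and no shift of the GAPDH difference, so the test does not cover these. The within-array Gclc difference used an exact permutation test. Labels name separate rats per group.

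The genes and the lists were chosen with earlier results of these data known. The rule for naming took all 9 genes with every probe set, from each pathway list up to 6 called genes at 994.6 mg/kg by size (or 2 where none was called), and the 3 genes most like each member called at 994.6 mg/kg or in the trend. Genes named beyond the rule, Nfe2l2, Keap1, Slc7a11, Gpx2, Me1, Osgin1 and Gss, were chosen after their values were seen. Marker lists covered hepatocytes, Kupffer cells, endothelium, stellate cells, bile duct, red cells and neutrophils. Apart from red cells, 1 marker was called at 994.6 mg/kg, Epcam of bile duct (0.69, limma adjusted p = 0.00632). Alternatives were a filter, normalization, eBayes options, probe set choice, covariates, a replicate block without controls 4 and 5, the arrays fitted, the dose scale and left-out replicates. Replicate numbers were not taken to pair rats. Deviations of same-numbered rats correlated between -0.382 and 0.366 (median 0.03), over 0.1 in 16 of 45 pairs. Those of rats with different numbers correlated between -0.336 and 0.345 (median -0.03), over 0.1 in 20 of 90 pairs. Whether a batch follows the numbers was not tested.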

Additional observations from a re-analysis of the deposited data

Results flagged for a closer look

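For Txnrd1 on probe set 1398791_at, control replicate 4 had 9.92, while the other 4 controls lay between 10.28 and 10.37, so that this sample stood far from the rest of its group. It was the one such case among the controls of the 13 probe sets, and chance gives about 1 in 20 groups. Without it the Txnrd1 difference at 994.6 mg/kg was 0.19 (limma adjusted p = 0.325), against 0.27 (adjusted p = 0.171) with it.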

How the results depend on the processing

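At 994.6 mg/kg Nqo1 and Ephx1 were called under every alternative but the GAPDH covariate with the deviating 124.5 mg/kg array left out (chosen after seeing the data). Members called at that dose, 3 in the report, were 0 under that fit and 5 with only the compared groups. Genes called, 635, were 985 with quantile normalization (473 higher, 512 lower), 3 with that covariate fit and 173 to 684 without single replicates. At 497.3 mg/kg members called were 0 under that fit, 1 with the mean of probe sets and 1 to 2 without single replicates. Its 104 genes became 65 with a beta-actin covariate, 235 with only the compared groups, 2 under the GAPDH fit without the array and 38 to 73 without single replicates. At 248.6 mg/kg members called were 0 with the GAPDH covariate, with or without the array, with beta-actin and with only the compared groups, 1 with quantile normalization, the mean of probe sets or all probe sets tested, and 0 to 1 without single replicates. Its 8 genes became 4 with GAPDH, 4 with beta-actin, 3 with only the compared groups, 0 under the GAPDH fit without the array and 3 to 9 without single replicates. At 124.5 mg/kg the 1 gene became 0 with the mean of probe sets and 0 to 2 without single replicates. At 62.3 mg/kg, with 0 called by limma and 349 at an unadjusted p under 0.05, it was 1 with a filter or median centring and 0 to 1 without single replicates. In the dose trend 5 members became 3 with GAPDH, beta-actin or no 994.6 mg/kg group, and 0 under the GAPDH fit without the array, where 29 genes were called. All genes were 920, 182 without 994.6 mg/kg and 592 to 1108 without single replicates. Among treated rats the 1 member became 2 with quantile normalization or a linear dose scale, 0 with GAPDH, with or without the array, without 994.6 mg/kg or with all probe sets, and 0 to 1 without single replicates. Its 31 genes became 104 with quantile normalization, 53 with trend and robust eBayes, 51 with a filter, 153 on the dose scale, 1 without 994.6 mg/kg, 5 under the GAPDH fit without the array and 15 to 68 without single replicates. Signs turned for Gclm at 994.6 mg/kg without replicate 1 (values without single replicates ran from -0.26 to 0.0083) and for its slope without that replicate (from -0.0292 to 0.0112), without 994.6 mg/kg (0.0212) or under the GAPDH fit without the array (0.00711), none of them called, and for Cyp1a1 (-0.82) and Cyp1a2 (-0.034) under that last fit. The gap between the Gclc probe sets was -0.18 over all treated rats, -0.14 at 497.3 mg/kg and between -0.45 and -0.23 without single replicates. Leaving out 1 replicate leaves at least 2 per group. The causes of these changes were not tested.

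With the replicate number as a block, which the labels do not give as a pairing, controls 4 and 5 were left out as well. These changes were not tested apart. Genes called were then 310 at 994.6 mg/kg, 38 at 497.3, 1 at 62.3 and 79 among treated rats, a fit without controls. Members called were 1 at 497.3 and 1 at 248.6 mg/kg, and the Gclc change at 994.6 mg/kg was -0.73 (adjusted p = 0.0631).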
